A study of Mus musculus with 4 samples.

Results

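Alpha and beta tubulin pair to form the building block of microtubules, and each is encoded by several genes whose products are called isotypes. The data described here are the transcripts of 10 tubulin genes in sorted sensory ganglion cells of the mouse. These are 7 beta genes (Tubb3, Tubb5, Tubb2a, Tubb2b, Tubb4a, Tubb4b and Tubb6) and 3 alpha genes (Tuba1a, Tuba1b and Tuba1c). The genes were chosen by symbol, and all 10 were found among the 41388 genes of the count tables. RNA had been extracted from EGFP-positive cells of dorsal root ganglia, which hold the cell bodies of sensory neurons. The cells were sorted by flow cytometry from ganglia of spinal levels T11 to S1 and amplified as cDNA before sequencing.

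There were 4 libraries, 1 from a female (female A) and 3 from males (male A, male B and male C). All carry the stage label P2, the strain label C57BL/6 and the genotype label Tg(Ret-EGFP)SJ/. The design text instead describes heterozygotes with EGFP inserted at the Ret locus, a receptor gene active in several classes of sensory neuron. On either reading the reporter, not an antibody, defined the sorted cells, and no library of EGFP-negative cells was analysed here. Each library came from ganglia pooled from 1 animal, by the labels, which give 40 ganglia for female A and 20 for every other library. As the levels are the same, it is unclear how 1 mouse gave the larger pool. The labels of pool size and treatment also differ between libraries. Male B and male C are each said to come from an embryo, and the other libraries from a P2 mouse. Female A and male A are called the P2-mouse pair and male B and male C the embryo pair. Age, the day of preparation and any other difference between the pairs cannot be told apart, and sex differs within the first pair only.

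Microtubules fill axons, carry transport between the cell body and the axon tip, and are assembled continually while an axon grows. Beta isotypes are close to each other over most of their length and differ most at the carboxy terminus, an acidic tail on the microtubule surface that binds motor proteins and receives glutamate and glycine chains. Tubb3 is the isotype most restricted to neurons and is widely used as a neuronal marker. Tubb5 is broadly expressed, Tubb2a and Tubb2b are abundant in brain, Tubb4a is a neuronal and oligodendrocyte isotype, Tubb4b is found in many tissues including cilia, and Tubb6 is low in most adult tissues. Tuba1a is the main alpha gene of developing neurons, whereas Tuba1b and Tuba1c are expressed in many cell types.

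The 3′ ends of 6 beta coding sequences are shown because they encode these tails and because reads from shared stretches cannot be assigned to 1 gene. Each line gives the last 72 coding bases before the stop codon, from GENCODE M21 on GRCm38. Capitals mark bases that no 12-base word found in another of the 10 coding sequences covers. No sequence is shown for the other genes.
Tubb3: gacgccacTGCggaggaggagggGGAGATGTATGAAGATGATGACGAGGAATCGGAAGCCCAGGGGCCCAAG (chr8:123421608-123421679, plus strand)
Tubb5: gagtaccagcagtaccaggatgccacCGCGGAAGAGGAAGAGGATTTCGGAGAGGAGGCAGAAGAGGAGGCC (chr17:35834985-35835056, minus strand)
Tubb2a: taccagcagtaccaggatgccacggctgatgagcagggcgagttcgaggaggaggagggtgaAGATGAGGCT (chr13:34074471-34074542, minus strand)
Tubb2b: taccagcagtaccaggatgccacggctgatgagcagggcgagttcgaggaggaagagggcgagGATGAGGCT (chr13:34127474-34127545, minus strand)
Tubb4a: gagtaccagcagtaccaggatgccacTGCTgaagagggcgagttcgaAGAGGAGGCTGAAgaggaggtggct (chr17:57080693-57080764, minus strand)
Tubb4b: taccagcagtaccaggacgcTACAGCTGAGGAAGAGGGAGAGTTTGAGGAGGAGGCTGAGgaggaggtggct (chr2:25222311-25222382, minus strand)
Tubb3 had 52 of its 72 bases in capitals and Tubb5 had 46, so the ends of these genes were the most distinct of the beta genes shown. Tubb4b had 40 and Tubb4a 17. Tubb2a and Tubb2b, with 10 and 9, were the least distinct at this end. Over whole coding sequences capitals covered 27.3% of Tubb3, 41.2% of Tubb5, 41.6% of Tubb4b, 28.2% of Tubb4a, 7.79% of Tubb2a and 11.9% of Tubb2b. By this measure the end of Tubb4a was no more distinct than its coding sequence as a whole, and that of Tubb2b was close to it.

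Over whole coding sequences, identity between pairs of the 7 beta genes ran from 80.8% to 96.5%, with a median of 83.7% over 21 pairs. The top value was that of Tubb2a with Tubb2b, the only beta pair above 86.6%. The 3 alpha genes were 97.6% to 98.4% identical, and an alpha with a beta gene 58.0% to 60.8%. What matters for counting is how much of a transcript could also have come from elsewhere, and this was measured as the share of its 50-base words that occur in the transcripts of another annotated gene. Tubb3 and Tubb6 shared none, Tubb5 0.115% and Tubb4a 0.184%. Tubb2a shared 49.6%, of which most lay in Tubb2b, and Tubb2b shared 39.3%. Tubb4b shared 55.5%, none of it with another of the 10 genes and 43.6% of its words with the pseudogene Tubb4b-ps1. Tuba1a shared 75.5%, Tuba1b 83.1% and Tuba1c 61.0%. Levels of Tubb3, Tubb5, Tubb4a and Tubb6 therefore rest on nearly unshared sequence, and those of the other 6 are uncertain to the extent that the counting split or dropped shared reads, a setting not given in the sources used here.

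**Figure D1:**
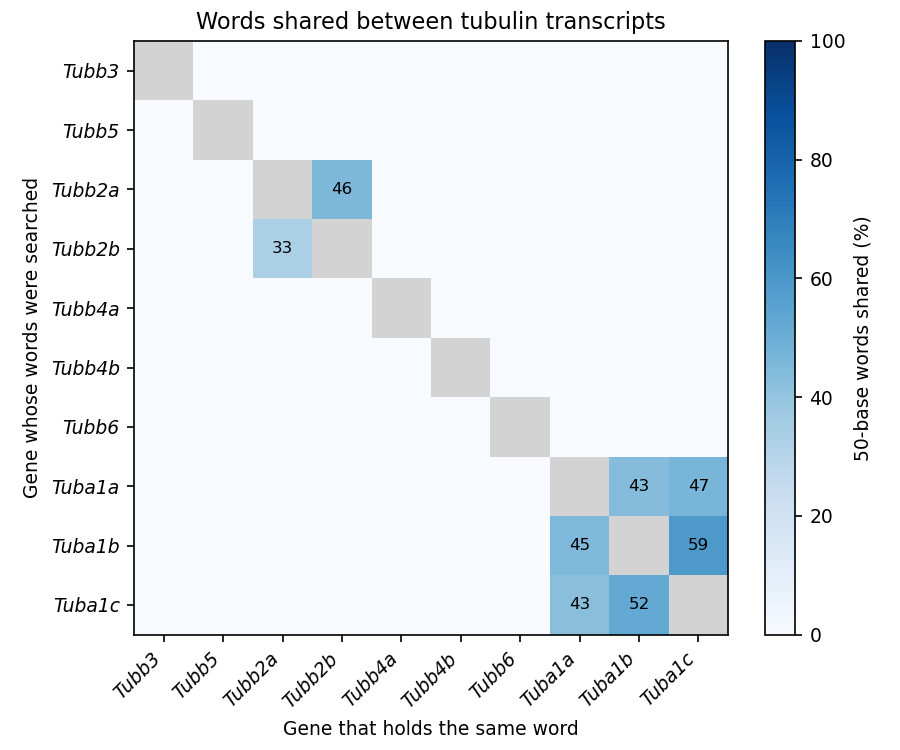
Share of 50-base words of each tubulin transcript (rows) that also occur in the transcripts of another of the 10 genes (columns), in percent; grey marks the gene itself. Sharing is seen between Tubb2a and Tubb2b and among the 3 Tuba1 genes, and is at or near 0 elsewhere.

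For Tubb4b and Tubb3, counts in competing annotations were low. The pseudogenes Tubb4b-ps1 and Tubb4b-ps2 held 23 to 41 and 3 to 20 counts per library, against 2473 to 9899 for Tubb4b. Tubb4b overlaps 121 exonic bases of Fam166a on the opposite strand, and Fam166a held 2 or 3 counts per library. Gm20388, whose span overlaps that of Tubb3 on the same strand with no exonic overlap, had a count of 0 in every library. For Tuba1c they were not low. Gm14150, which holds 34.9% of its words, had 82 to 168 counts per library, against 64 to 113 for Tuba1c. Gm5620, which holds 26.3%, had 86 to 235, and both exceeded Tuba1c in every library. Far larger were the counts of Tuba1b (3671 to 6442) and Tuba1a (109410 to 198063), which hold 52.0% and 42.5% of the words of Tuba1c.

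In the coordinates of the count tables (GRCm38), the 3 alpha genes lie close together on chromosome 15. Tuba1b (ENSMUSG00000023004) runs from 98931425 to 98934565 and Tuba1a (ENSMUSG00000072235) from 98949841 to 98953551, both on the minus strand. Tuba1c (ENSMUSG00000043091) runs from 99029891 to 99038105 on the plus strand. Tubb2a (ENSMUSG00000058672, 34074301 to 34078008) and Tubb2b (ENSMUSG00000045136, 34127008 to 34130354) neighbour each other on the minus strand of chromosome 13. Tubb5 (ENSMUSG00000001525, 35833921 to 35838306) and Tubb4a (ENSMUSG00000062591, 57080066 to 57087782) are both on the minus strand of chromosome 17 but far apart. Tubb3 (ENSMUSG00000062380) lies on the plus strand of chromosome 8 from 123411424 to 123422015, and Tubb4b (ENSMUSG00000036752) on the minus strand of chromosome 2 from 25222160 to 25224702. Each of the 10 transcripts has 4 exons, all of which hold coding sequence.

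Gene counts summed to between 17388493 (male A) and 28066448 (female A) per library. The 10 genes took 2.45% of the counts of male B and 2.22% of those of male C, against 1.34% for male A and 1.47% for female A. The libraries carried no molecular identifiers, so the precision that counts give covers counting error only. All 10 neuron markers examined, among them the intermediate filament gene Prph and the RNA-binding protein gene Elavl4, were detected in each library. No pair of libraries agreed within counting noise. The chi-square per degree of freedom over genes was 11.7 between female A and male A, 25.6 between male B and male C, and 156 to 181 between libraries of different pairs. The libraries thus lay closer within a pool description than within a sex.

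Tuba1a, Tubb3 and Tubb5 were among the most abundant transcripts of these cells. On the scale of RPKM, a count scaled to the library total and to the exon length of the gene, Tuba1a stood at 4217 (female A), 3820 (male A), 5305 (male B) and 4521 (male C). It ranked between 2nd and 4th of all genes in every library. Tubb3 stood at 1091 RPKM (female A), 990 (male A), 2952 (male B) and 2778 (male C), and it ranked 22, 27, 10 and 11 among all genes. Tubb5 followed at 992, 902, 1676 and 1635 RPKM in the same order of libraries.

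The order by mean RPKM over the 4 libraries was Tuba1a (4466 ± 629, SD, n = 4), Tubb3 (1953 ± 1057), Tubb5 (1301 ± 411), Tubb4a (579 ± 279), Tubb2a (554 ± 132), Tubb2b (343 ± 105), Tubb4b (133 ± 70.6), Tuba1b (127 ± 17.0), Tubb6 (12.9 ± 3.91) and Tuba1c (2.10 ± 0.210). In RPKM, Tuba1a was above Tubb3, Tubb3 above Tubb5 and Tubb5 above Tubb4a in all 4 libraries. The ranges of Tubb3 and Tubb5 overlapped across libraries, and their order depended on the division by exon length. In CPM, Tubb5 was above Tubb3 in every library, with Tubb3 over Tubb5 at 0.617 (female A), 0.616 (male A), 0.989 (male B) and 0.954 (male C). Some neighbouring places in this order were not stable. Tubb4a was above Tubb2a in male B and male C and below it in female A and male A, and Tubb4b and Tuba1b changed places in the same way. Tubb2a was above Tubb2b in all 4 libraries, with overlapping ranges. The SDs are wide for Tubb3, Tubb4a and Tubb4b because they span both pairs of libraries.

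**Figure D2:**
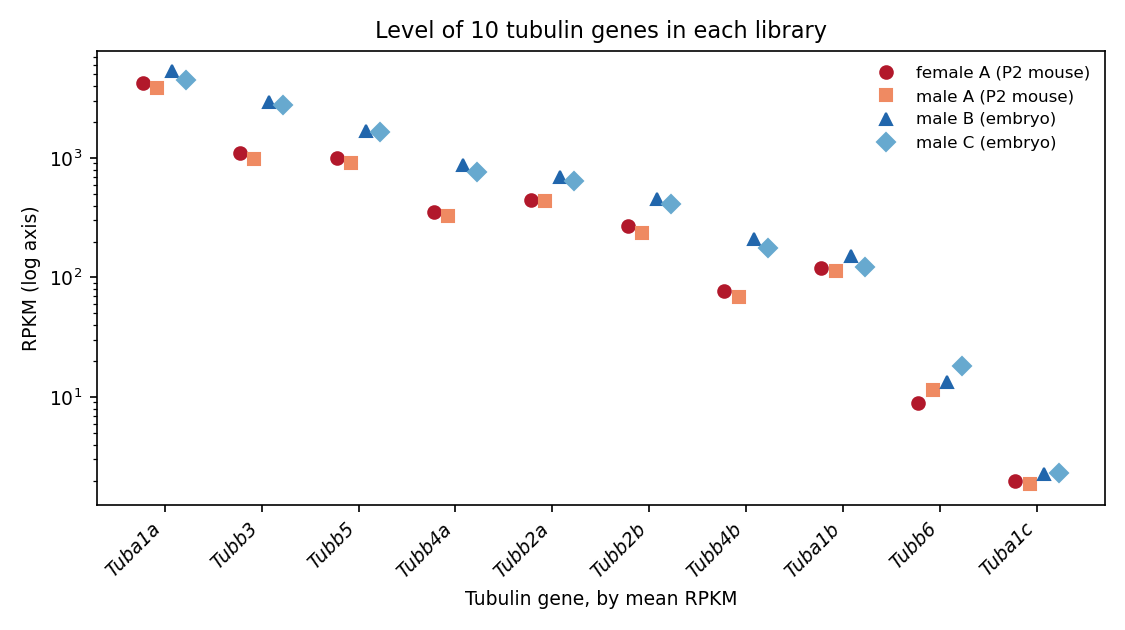
RPKM (log axis) of the 10 tubulin genes in each of the 4 libraries, with genes ordered by their mean. Points of the P2-mouse pair (female A, male A) lie below those of the embryo pair (male B, male C) for every gene, with the widest gaps for Tubb3, Tubb4a and Tubb4b and narrow ones for the alpha genes. How many of all genes part in this way was not counted.

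Expression of the beta isotypes was concentrated in 2 genes. Tubb3 and Tubb5 made up 33.6% and 30.6% of the summed beta RPKM in female A, 33.3% and 30.4% in male A, 43.1% and 24.5% in male B, and 43.2% and 25.4% in male C. Tubb2a and Tubb2b together gave 22.2%, 22.6%, 16.6% and 16.5% in the same order. Tubb4a contributed 10.9%, 10.99%, 12.7% and 11.9%. Tubb4b gave between 2.29% and 3.05%, and Tubb6, at 0.195% to 0.384%, was a minor component in every library.

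The alpha side was dominated by 1 gene. Tuba1a made up 97.1% to 97.3% of the summed RPKM of the 3 alpha genes, Tuba1b 2.65% to 2.86% and Tuba1c 0.0413% to 0.0494%. These shares are the most exposed to shared reads, since at least 61.0% of the words of each alpha gene recur in other genes.

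Between the pairs of libraries the mixture of beta isotypes differed, a comparison that does not depend on how libraries are scaled to each other. The shares and ratios were not adjusted for GC content, which was 57.9% for the Tubb3 transcript and 52.0% for that of Tubb5. The Tubb3 share was 33.5% in the P2-mouse pair and 43.1% in the embryo pair, a difference of -9.61 percentage points, with an SD of 0.158 points within pairs. The ratio of Tubb3 to Tubb5 RPKM was 1.10 in both P2-mouse libraries, 1.76 in male B and 1.70 in male C. In the other direction, the Tubb5, Tubb2a and Tubb2b shares were higher in both P2-mouse libraries than in both embryo libraries. The pairs did not overlap in the shares of Tubb3, Tubb5, Tubb2a, Tubb2b, Tubb4a or Tubb4b, and they overlapped in that of Tubb6. With 2 libraries against 2, the exact two-sided permutation test cannot go below p = 0.333, which is the value it gave for the Tubb3 share.

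Alpha and beta transcripts also stood in a different proportion. The summed RPKM of the alpha genes was 1.34 times that of the beta genes (female A), 1.33 times (male A), 0.796 times (male B) and 0.722 times (male C). Tuba1a was at 3.86 times the level of Tubb3 in both P2-mouse libraries, 1.80 times in male B and 1.63 times in male C. The pairs did not overlap in either ratio (exact two-sided permutation test, p = 0.333 for each, the smallest the design allows). The absolute proportion depends on the length by which counts are divided. When only words not shared with another gene of the tables counted as length, alpha exceeded beta in every library, by 3.15, 3.11, 1.93 and 1.75 times. The counts were left whole, so these values assume that the counting dropped every shared read, which is not known. If shared reads were counted or split, the alpha side is overstated.

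**Figure D3:**
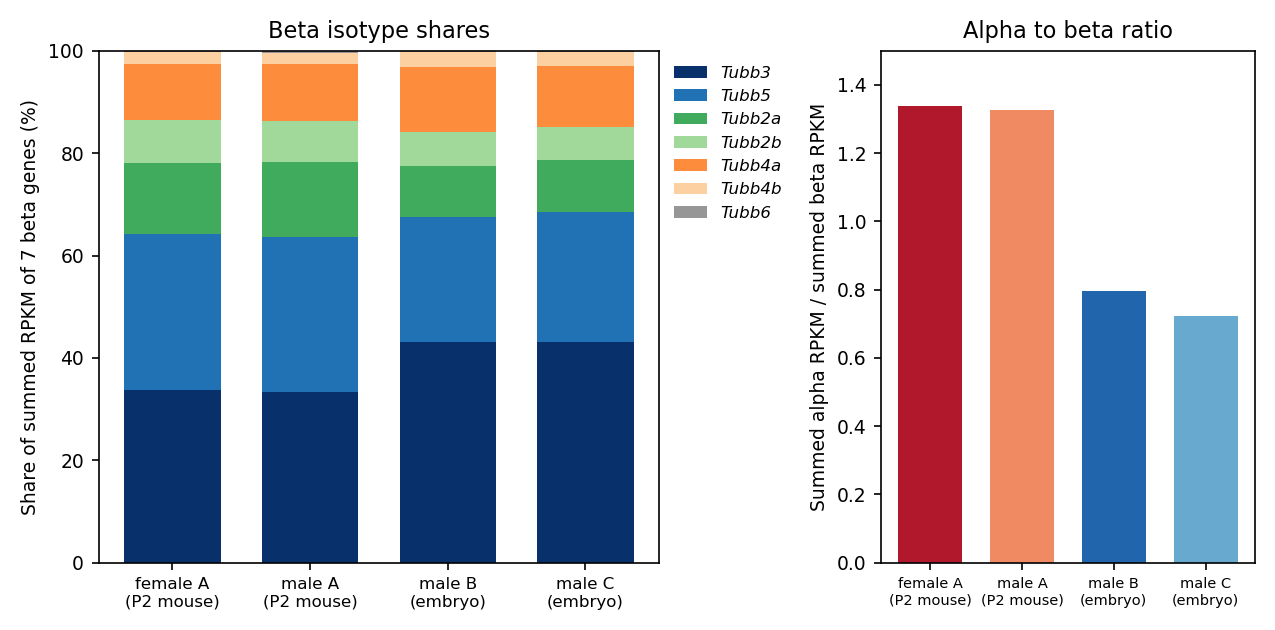
Left, share of each beta gene in the summed RPKM of the 7 beta genes, in percent, for each library; right, ratio of summed alpha to summed beta RPKM. The lowest block, Tubb3, is 33.3% to 33.6% in the P2-mouse pair and 43.1% to 43.2% in the embryo pair, and the Tubb6 block is too thin to see.

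The levels of individual genes were compared between the pairs with the quasi-likelihood test of edgeR, fitted across 15568 genes with Benjamini-Hochberg adjustment. Of the 10 tubulin genes, 9 passed the test as lower in the P2-mouse pair and 0 as higher, where 20.0% of all genes tested passed as lower and 22.3% as higher (42.3% in all). The median log2 fold change was -0.92 over the 7 beta genes, -0.35 over the 3 alpha genes and 0.018 over all genes. The share of all genes whose pairs did not overlap was not counted, so lack of overlap in a tubulin gene is description only. These were bulk samples, so fewer cells of a type and less RNA per cell cannot be told apart.

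Tubb3 and both Tubb4 genes fell furthest. Tubb3 stood at 2039 CPM in female A and 1849 in male A, while male B had 5515 and male C 5189. Both P2-mouse libraries were thus far below both embryo libraries, and the values did not overlap. The log2 fold change was -1.58 (SE 0.081, edgeR adjusted p = 0.000105). Tubb4b followed the same pattern at a lower level, with 161 and 142 CPM in female A and male A against 437 and 367 in male B and male C, without overlap (log2 fold change -1.52, SE 0.114, edgeR adjusted p = 0.000143). Tubb4a stood at 789 and 727 CPM in the P2-mouse pair and 1932 and 1711 in the embryo pair, again without overlap (-1.38, SE 0.091, edgeR adjusted p = 0.000135).

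Tubb5 and the Tubb2 genes, which carry much of the remaining beta tubulin, fell less. Tubb5 stood at 3302 CPM (female A), 3000.5 (male A), 5576 (male B) and 5441 (male C), a log2 fold change of -0.92 (SE 0.077, edgeR adjusted p = 0.000194). Tubb2b stood at 521, 456, 865 and 797 CPM in the same order (-0.88, SE 0.094, edgeR adjusted p = 0.000389). Tubb2a stood at 711, 687, 1089 and 1026 CPM (-0.71, SE 0.079, edgeR adjusted p = 0.000444). For each of these genes the P2-mouse values lay below the embryo values without overlap. Summing Tubb2a and Tubb2b before the fit, which removes the question of how reads were split between them, gave a log2 fold change of -0.78 (SE 0.081, edgeR adjusted p = 0.000345).

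Tubb6, the least abundant beta gene, was less certain. It stood at 15.5 CPM (female A), 20.0 (male A), 23.5 (male B) and 31.8 (male C), so male A and male B were close. Its log2 fold change was -0.76 (SE 0.206, edgeR adjusted p = 0.0208). The call was lost without female A (-0.57, edgeR adjusted p = 0.165) and without male A (-0.95, edgeR adjusted p = 0.0519), whereas it held without male B or male C.

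The alpha genes had the smallest fold changes. Tuba1a stood at 6945 CPM (female A), 6292 (male A), 8737 (male B) and 7446 (male C). Male B and male C differed by more than female A and male C did, and the pairs did not overlap. The log2 fold change was -0.40 (SE 0.095, edgeR adjusted p = 0.0114), and without male A it was -0.34 (edgeR adjusted p = 0.0924). Tuba1b stood at 226, 211, 284 and 231 CPM in the same order, which left female A and male C nearly level. Its log2 fold change of -0.35 (SE 0.115, edgeR adjusted p = 0.0426) was no longer called without female A (edgeR adjusted p = 0.142), male A (edgeR adjusted p = 0.236) or male B (log2 fold change -0.20, edgeR adjusted p = 0.118). Tuba1c, at 3.92, 3.68, 4.46 and 4.54 CPM, rested on 64 to 113 counts per library and did not pass the test (-0.35, SE 0.262, edgeR adjusted p = 0.310). The 3 genes summed gave -0.40 (SE 0.095, edgeR adjusted p = 0.0117).

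Sex is partly confounded with the pairs, since the only female library is in the P2-mouse pair. With sex as a term in the model, which leaves 1 residual degree of freedom and in effect sets male A against male B and male C, 6 of the 10 genes passed as lower, where 10.4% of all genes did (23.6% passed in either direction). These were Tubb3, Tubb5, Tubb2a, Tubb2b, Tubb4a and Tubb4b, with log2 fold changes from -1.64 (Tubb3) to -0.72 (Tubb2a) and edgeR adjusted p between 0.00737 and 0.0163. Tuba1a kept its size without passing (-0.47, edgeR adjusted p = 0.0586), as did Tuba1b (-0.39, edgeR adjusted p = 0.155), and Tubb6 stood at -0.57 (edgeR adjusted p = 0.182).

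Base composition moved with the change between the pairs across the transcriptome. Over 15474 genes, which share their libraries and are not independent, Spearman's rho between the GC content of a gene's longest transcript and its log2 fold change was -0.444. All 10 tubulin transcripts had a GC content above the median of tested genes (49.3%), from 51.2% for Tubb2b to 57.9% for Tubb3. The 4788 genes in that range had a median log2 fold change of -0.35, and the 9322 genes below it one of 0.29. Tubb3, Tubb4b and Tubb4a lay well below the median of their range, Tuba1a, Tuba1b and Tuba1c near it.

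With offsets for GC content and transcript length estimated in each library, 5 of the 10 genes passed as lower, where 20.9% of all genes did (33.3% passed in either direction). Tubb3 was at -1.13, Tubb4b at -1.06, Tubb4a at -0.96, Tubb5 at -0.68 and Tubb2b at -0.66 on the log2 scale. Tubb2a was at -0.24 (edgeR adjusted p = 0.0749) and Tubb6 at -0.27 (edgeR adjusted p = 0.305). None of the alpha genes was called, with Tuba1a at -0.029 (edgeR adjusted p = 0.859), Tuba1b at 0.10 and Tuba1c at 0.085, the last 2 with the opposite sign. The split of calls over all genes turned as well, from 3472 higher and 3112 lower to 1918 higher and 3231 lower.

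**Figure D4:**
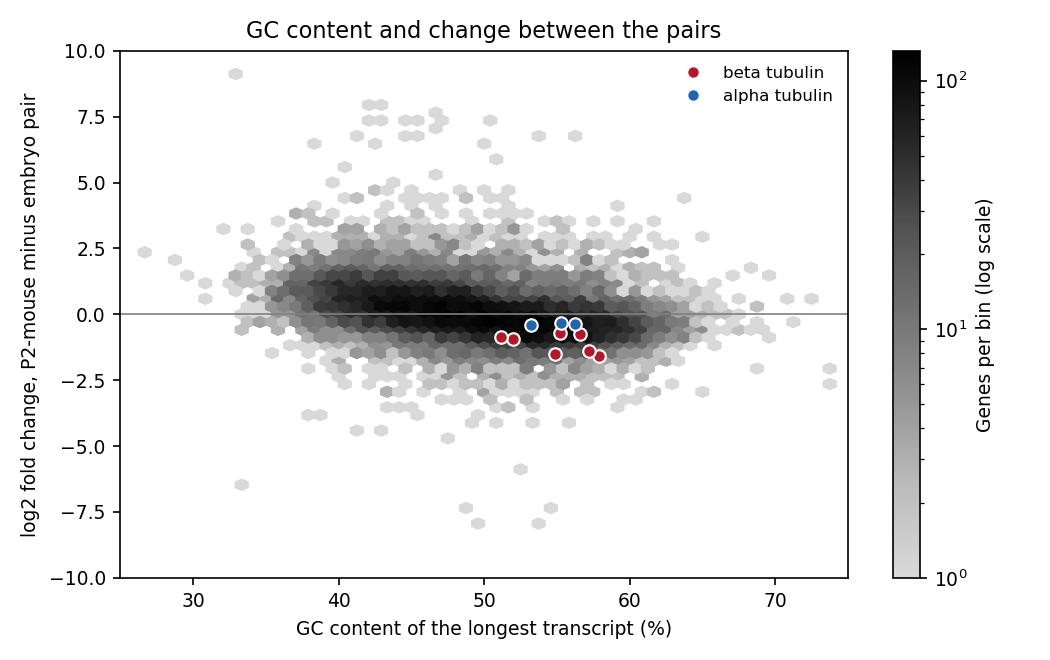
GC content of the longest transcript (percent) against the log2 fold change of the P2-mouse pair minus the embryo pair; grey hexagons count genes on a log scale and circles are the tubulin genes. Genes with high GC content tend to lie below 0, the alpha genes lie within the dense band and Tubb3, Tubb4a and Tubb4b toward its lower side.

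**Figure D5:**
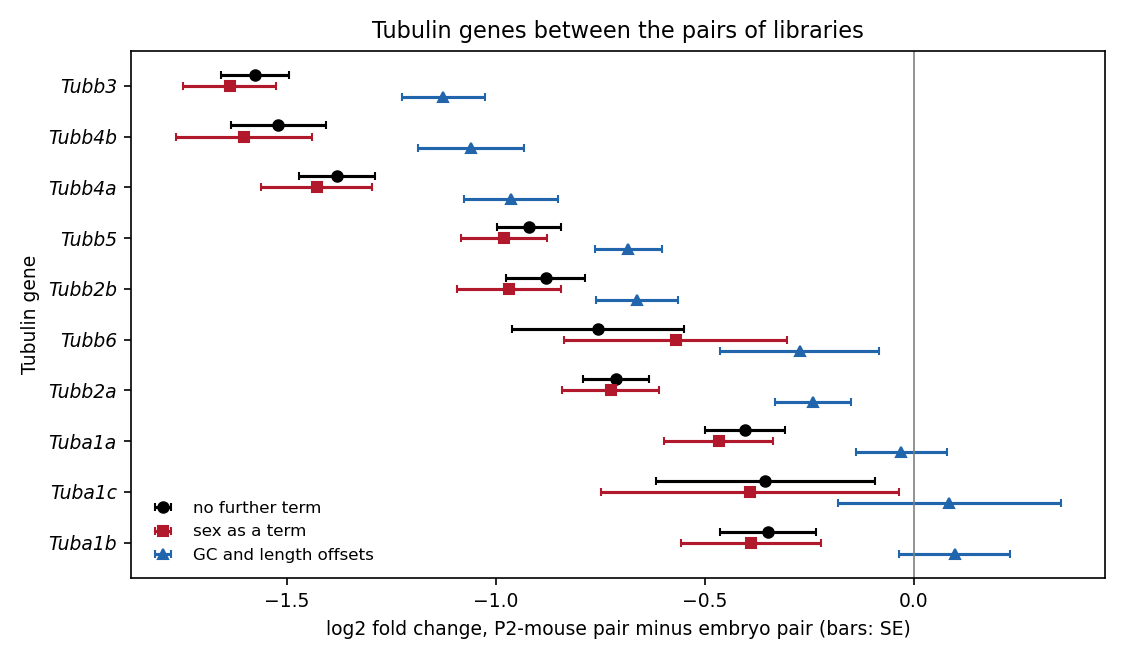
Log2 fold change of each tubulin gene, P2-mouse pair minus embryo pair, in the fit with no further term, with sex as a term and with GC and length offsets; bars are the SE. Tubb3, Tubb4b, Tubb4a, Tubb5 and Tubb2b stay below -0.6 in all 3 fits, and the alpha genes move to about 0 with the offsets.

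Markers of the sorted cells and of other cell types differed between the same pairs. Of the 10 neuron markers, 8 passed as lower in the P2-mouse pair, where 20.0% of all genes did, with a median log2 fold change of -0.52. With GC and length offsets 6 passed, where 20.9% of all genes did. Their summed level was 10645 CPM (female A), 10304 (male A), 14230 (male B) and 13071 (male C). Stmn2, which encodes a tubulin-binding protein of growing axons, was the highest at 5066, 4965, 6762 and 6120 CPM. Of the 9 myelinating Schwann cell markers 8 passed as higher, where 22.3% of all genes did, with sums of 4812, 7705, 2988 and 3001 CPM, led by Pmp22. Of 6 fibroblast markers 5 passed as higher, with sums of 1374, 1515, 295 and 318 CPM, led by the collagen gene Col1a2. With GC and length offsets 8 Schwann cell markers passed as higher, and 4 fibroblast markers passed as higher and 1 as lower. Over all genes 12.4% passed as higher and 20.9% as lower with the offsets. None of these neuron, Schwann cell or fibroblast markers was at 0 in any library. Their part in the tubulin differences was not tested.

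The 7 satellite glia markers, led by Apoe, summed to 464, 436, 385 and 697 CPM in the same order, with 4 higher and 2 lower (22.3% and 20.0% of all genes). Endothelial and mural markers, led by Rgs5, summed to 90.8 to 99.4 CPM, with 2 of 5 tested higher, where 22.3% of all genes were. Proliferation markers, led by Top2a, summed to 53.5 to 79.9 CPM, with 3 of 6 higher and 1 lower (22.3% and 20.0% of all genes). With GC and length offsets 1 endothelial or mural marker was higher and 1 lower, and 0 proliferation markers were higher and 1 lower. Over all genes 12.4% were higher and 20.9% lower with the offsets (edgeR). Erythroid markers, led by Hbb-bs, summed to 43.9, 56.8, 16.9 and 5.26 CPM, with 3 of 5 higher, where 22.3% of all genes were. Macrophage markers, led by C1qb, summed to 4.49 CPM or less, with 0 of 2 tested called by edgeR and C1qa at 0 in male B and male C.

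The female library could be set only against males of both pool descriptions. The female value lay inside the range of the 3 males for 9 of the 10 genes on the CPM scale. The exception was Tubb6, at 15.5 CPM in the female against 20.0 to 31.8 in the males. Tubb3, for example, had a mean of 4184 ± 2029 CPM over the males (SD, n = 3) and 2039 CPM in female A, a spread that holds the difference between male A and the other males. Of the 10 genes, 0 passed the edgeR quasi-likelihood test and 0 had an unadjusted p under 0.05, where 0% of 16708 genes passed in either direction and 129 had an unadjusted p under 0.05. DESeq2 called 0 of the 10 genes, with 1 higher and 4 lower among all genes, and limma-voom called 0 of the 10 and 0 of all genes. With 1 female library and this male spread, a gene that does not pass is not shown to be alike in the sexes.

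The direction of the female values depended on which males they were set against. The fitted log2 fold changes ran from -1.15 (Tubb3, SE 0.686, edgeR adjusted p = 0.951) to -0.19 (Tuba1b, SE 0.347). With the pool description as a term, which sets female A against male A, 9 of the 10 turned positive, from 0.029 (Tubb2a, SE 0.130) to 0.17 (Tubb2b, SE 0.137), and Tubb3 was at 0.12 (SE 0.111). Tubb6 stayed negative at -0.38 (SE 0.301). In that fit 0 of the 10 genes and 0.0239% of all genes passed as lower. Female A exceeded male A in CPM for every gene but Tubb6, and none of these differences passed the test. Without male A, the female was set against the embryo pair alone, the same 3 libraries as in the comparison of the pairs without male A. The log2 fold changes then ran from -1.51 (Tubb3) to -0.30 (Tuba1b).

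In mean RPKM over the 4 libraries, the other tubulin genes of the list were all below Tuba1b (127). Tubg1 (30.9), Tubg2 (20.3) and Tuba4a (16.1) were above Tubb6 (12.9) and Tuba1c (2.10). Gamma tubulin, which nucleates microtubules at the centrosome, was represented by Tubg1 at 20.1 RPKM (female A), 20.2 (male A), 43.6 (male B) and 39.9 (male C) (log2 fold change -1.17, edgeR adjusted p = 0.000268), and by Tubg2 at 16.3, 15.02, 23.9 and 25.9 RPKM (-0.78, edgeR adjusted p = 0.00249). With GC and length offsets Tubg1 still passed (-0.70) and Tubg2 did not (-0.31, edgeR adjusted p = 0.0890). Tuba4a, an alpha gene of mature neurons among other cells, stood at 6.83, 5.42, 30.2 and 22.0 RPKM and fell by 2.20 on the log2 scale (SE 0.187, edgeR adjusted p = 0.000194). Tuba4a also passed with sex as a term (-2.37) and with GC and length offsets (-1.95). Tuba8 was barely detected, at 0.0320 to 0.991 RPKM, with a log2 fold change of -3.41 (SE 0.770, edgeR adjusted p = 0.00951) that did not pass with sex as a term (edgeR adjusted p = 0.1005). Of the 10 genes of this list, 6 were tested, 4 passed as lower and 0 as higher, where 20.0% and 22.3% of all genes did. Tuba3a, Tuba3b, Tubal3 and Tubb1 were too low to test.

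Newly made tubulin is folded by prefoldin, the ring-shaped chaperonin that the Cct genes and Tcp1 encode, and the tubulin cofactors Tbca to Tbce, and excess free tubulin shortens the life of tubulin transcripts through the protein of Ttc5. Of the 22 genes of this list, all tested, 9 passed as lower in the P2-mouse pair, 2 passed as higher and 11 did not pass (20.0% of all genes were lower and 22.3% higher), with a median log2 fold change of -0.26. The most abundant were the chaperonin subunits Cct5 (255, 265, 386 and 360 RPKM in female A, male A, male B and male C; -0.64, edgeR adjusted p = 0.000816) and Cct7 (243, 242, 390 and 381 RPKM; -0.78, edgeR adjusted p = 0.000295), and the beta tubulin cofactor gene Tbca. Tbca did not pass (306, 350, 284 and 276 RPKM; 0.11, edgeR adjusted p = 0.410), but it turned to -0.31 and passed as lower with GC and length offsets (edgeR adjusted p = 0.0306). Arl2, a small GTPase gene of the cofactor pathway, fell furthest, by 1.09 on the log2 scale (edgeR adjusted p = 0.000194), followed by the alpha tubulin cofactor gene Tbcb (-0.78, edgeR adjusted p = 0.000635), which no longer passed with the offsets (-0.27, edgeR adjusted p = 0.0518). Ttc5 passed as lower too (-0.58, SE 0.165, edgeR adjusted p = 0.0238), but not with sex as a term (-0.37, edgeR adjusted p = 0.161). The 2 higher genes were the prefoldin subunit gene Vbp1 (0.54, edgeR adjusted p = 0.00413) and Cct4 (0.39, edgeR adjusted p = 0.0349), of which Cct4 did not pass with sex as a term (edgeR adjusted p = 0.187). With GC and length offsets neither was called, Vbp1 was at -0.17, and 8 of the 22 passed as lower with 0 higher, where 20.9% and 12.4% of all genes did.

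Tubulin modifying enzymes add or remove tyrosine, glutamate, glycine or acetyl groups, many of them on the carboxy-terminal tails of alpha or beta tubulin. Only beta coding ends are shown above. Of 22 genes tested, 4 passed as lower, 3 as higher and 15 did not pass, with a median log2 fold change of -0.13. These shares are near those over all genes (20.0% lower and 22.3% higher). With GC and length offsets 8 passed as lower and 2 as higher, where 20.9% and 12.4% of all genes did. The polyglutamylase gene Ttll1 stood at 46.1, 44.8, 76.9 and 72.1 RPKM in female A, male A, male B and male C and fell by 0.83 on the log2 scale (SE 0.089, edgeR adjusted p = 0.000402). Ttll7, a polyglutamylase gene with a preference for beta tubulin, was higher instead, at 51.2, 54.1, 25.4 and 22.7 RPKM (1.02, SE 0.095, edgeR adjusted p = 0.000254). Svbp, which encodes the partner of the detyrosinating vasohibins, stood at 59.9, 60.5, 56.4 and 58.9 RPKM and did not pass (-0.052, edgeR adjusted p = 0.735), but passed as higher with the offsets (0.37, edgeR adjusted p = 0.0328). Ttll5 (-0.83), Ttll11 (-1.52) and the deacetylase gene Hdac6 (-0.70) were the other genes that passed as lower, and Ttll4 (1.32) and the deglutamylase gene Agtpbp1 (0.41) the others that passed as higher. With sex as a term Ttll11, Ttll4 and Agtpbp1 did not pass (edgeR adjusted p = 0.104, 0.174 and 0.0866). With the offsets Ttll7 was at 0.13 (edgeR adjusted p = 0.273), Ttll4 at 0.76 (edgeR adjusted p = 0.142) and Agtpbp1 turned to -0.34 (edgeR adjusted p = 0.0240). Ttll1, Ttll5 and Ttll11 (-1.18, edgeR adjusted p = 0.0386) still passed as lower with the offsets.

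Among 3857 other genes with a mean of at least 50 CPM, the genes whose relative level over the 4 libraries was closest to that of Tubb3 were Resp18, Tmem250-ps, Pld3, Mt3 and Mcu. Closeness was the root mean square difference in log2 CPM centred on each gene's own mean, from 0.014 for Resp18, a secretory pathway gene, to 0.061 for Mcu, the mitochondrial calcium uniporter gene. Resp18 stood at 34.5 CPM (female A), 32.1 (male A), 94.4 (male B) and 88.3 (male C). Within the tubulin genes, Tubb4b (0.066) and Tubb4a (0.104) were closest to Tubb3, Tubb5 was at 0.328 and Tuba1b was furthest at 0.622. Over 4 libraries that fall into 2 pairs, this measure mainly reflects the size of the gap between the pairs.

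RefSeq promoter sequences (GRCm38.p6) were found for 8 of the 10 genes, all but Tubb2b and Tubb6. The first 250 bases of each, taken as those before the start, were used. For Tubb3 and Tuba1a these bases lay partly inside the gene span of the count tables. The GC content of the 8 promoters ran from 49.2% (Tubb5) to 75.6% (Tuba1b), against a median of 52.4% over 32851 promoters. The GC box GGGCGG, searched on both strands, was found in 5 of the 8 promoters and in 32.7% of all promoters. Tubb3, Tubb2a and Tuba1b had 2 matches each and Tubb4b and Tuba1a 1 each. The CCAAT box, also on both strands, was found in 5 of 8 and in 33.8% of all, with 5 matches in Tubb4b, 2 in Tubb5 and 1 each in Tubb3, Tuba1a and Tuba1c. The TATAAA box was found in Tubb2a only (12.4% of all promoters), as was the cyclic AMP response element TGACGTCA (1.55% of all). The E box CANNTG was found in 6 of the 8 and in 66.2% of all promoters, and Tubb3 had no match to it. Tubb4a held none of the motifs searched. Tubb3, Tubb4b and Tuba1a each held a GC box and a CCAAT box.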

How the data were processed

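Counts of reads per gene, CPM and RPKM were deposited for each library. Per the submitters' processing notes, the authors' counts were made with featureCounts 1.4.5 of the Subread package on GRCm38.p2. Recomputed here, the deposited CPM values are counts scaled to the library's total of gene counts, and the deposited RPKM values, per the file headers, are CPM per kilobase of the listed exon length. Not given in the sources used here are the aligner, annotation release, strand setting and handling of multi-matching reads.

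Symbols for 40254 of 41388 genes (97.3%) and transcript sequences came from GENCODE M21 (GRCm38). Libraries were grouped by sex and, as a batch, by the pool description in the labels. Both comparisons were fitted to the counts in R 4.3.3 with the quasi-likelihood F test of edgeR 4.0.16, after filterByExpr (at least 10 counts, total at least 15) and TMM scaling (factors 0.961 to 1.05). Adjustment was by Benjamini-Hochberg over all genes tested, with a threshold of 0.05. The single female library borrows its spread from the males (2 residual degrees of freedom). An SE is the absolute log2 fold change divided by the root of F. Alternatives were relative log expression size factors, a filter at a mean of 5 CPM, no filter, DESeq2 1.42.0, limma-voom (limma 3.58.1), per-library offsets for GC content and length (mgcv 1.9.3), a term for sex or pool description, and each library left out in turn. The offsets together with sex, the sums of near-identical genes in the fit and the length of unshared words were added after the data were seen.

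Coding identity was computed with Biopython 1.88. The tests were also run on simulated counts, whose spread between libraries was smaller than in the real fits. That run therefore does not show how the tests perform on these data, and its outcome is not reported here. The genes, gene lists and the comparison of the pairs were chosen with earlier results of these data known. All 10 tubulin genes were named, and of 3 related lists the 3 highest by mean RPKM and up to 3 called genes in each direction, beside the highest of each marker list and the 5 genes closest to Tubb3. Ttc5 and Hdac6 were named after their values were seen. Some coding sequence ends are not reported here.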

Additional observations from a re-analysis of the deposited data

How the results depend on the processing

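Between the pairs, the count of 9 tubulin genes lower was the same with relative log expression factors, a filter at a mean of 5 CPM, no filter, DESeq2 and limma-voom. It was 6 with sex as a term, 5 with GC and length offsets, 5 with both, and 6 to 9 with each library left out in turn. Tubb3, Tubb5, Tubb2b, Tubb4a and Tubb4b passed as lower in every alternative run. With the offsets Tuba1b and Tuba1c reversed to 0.098 and 0.085, and with the offsets and sex to 0.075 and 0.075. Over all genes, 3472 were higher and 3112 lower; with the offsets 1918 were higher, with sex as a term 2064 higher and 1615 lower, and with both 775 and 1283. Leaving out each library gave 1935 to 3630 higher and 1681 to 3311 lower, the low ends without male A and, at 2202 and 1834, without female A.

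For female against male, the pool description as a term reversed 9 genes: Tubb3 (0.12), Tubb5 (0.12), Tubb2a (0.029), Tubb2b (0.17), Tubb4a (0.099), Tubb4b (0.16), Tuba1a (0.12), Tuba1b (0.080) and Tuba1c (0.072). The offsets reversed Tuba1a (0.044), Tuba1b (0.088) and Tuba1c (0.058). Of the tubulin genes 0 to 6 were lower with a male left out. Over all genes 1 was higher and 1 lower with no filter, 1 and 4 with DESeq2, 4 lower with the offsets and 4 lower with the pool term. With a male left out 1 to 1935 were higher and 4 to 1681 lower.

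In CPM rather than RPKM, the difference in the Tubb3 share was -8.72 points, in Tubb3 over Tubb5 -0.35 and in alpha over beta 0.39. With unshared words as length, which assumes that shared reads had been dropped, the share differed by -9.23 points and alpha over beta by 1.29. No paired analysis was possible because the only female library shares its replicate letter and pool description with male A alone. Depth limited Tuba1c, with at most 113 counts.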
